A study of Mus musculus with 24 samples.

Results

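The 10 genes described here are an endothelial set in mouse quadriceps muscle. They are the flow-regulated transcription factors Klf2 and Klf4, the vascular endothelial growth factor (VEGF) receptors Flt1 and Kdr, the angiopoietin receptor Tek, the junction proteins Pecam1 and Cdh5, the clotting factor gene Vwf, the nitric oxide synthase gene Nos3 and the TGF-beta co-receptor gene Eng. Each member was found by its mouse symbol, and the 10 rows were taken from 18669 genes in the count table. All 10 passed the filter of at least 2 counts in at least 10 libraries, which left 13754 genes to be tested. Their counts ran from 84 reads (Klf2 in 1 wild type HSP990 mouse) to 11048 reads (Cdh5) per library.

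Poly(A) RNA from the quadriceps femoris of 24 mice was sequenced, with 2 mice in each of 12 groups, and each mouse was killed 4 hours after treatment. Wild type, R6/2 and Hsf1-/- mice on a CBA x C57BL/6 F1 background received a heat shock (HS, body at 41.5 °C for 15 minutes) or a control procedure (control, 36.9 °C for 21 minutes), both under isoflurane, or were given the HSP90 inhibitor NVP-HSP990 (HSP990, 12 mg/kg) or its vehicle, which the labels give as saline. R6/2 mice carry a transgene for the first exon of mutant human huntingtin and model Huntington's disease, and Hsf1-/- mice lack functional heat shock factor 1 (HSF1) in every cell. Wild type and R6/2 mice were 12 weeks old, whereas Hsf1-/- mice were 10 weeks old in the heat shock experiment and 8 weeks old in the HSP990 experiment. The labels do not say whether the mice of a group shared a litter or a processing day, so the p-values measure the spread between these mice only.

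Endothelial cells line every vessel, and in muscle most of them belong to capillaries. KLF2 and KLF4 are zinc finger factors that laminar flow induces through a MEK5, ERK5 and MEF2 kinase pathway, and they raise vasoprotective genes such as Nos3 and lower inflammatory and vasoconstrictor genes. KDR (VEGFR2) carries most VEGF signalling, FLT1 (VEGFR1) binds VEGF tightly and acts largely as a decoy, and TEK (TIE2) keeps vessels quiescent when bound by angiopoietin 1. In bulk muscle, fewer endothelial cells and less RNA per endothelial cell cannot be told apart. To place each member against the other endothelial RNA, a panel of 24 endothelial genes that are not members was used. Of these, 23 were tested (Clec14a was at 0 in all libraries), and their mean log2(CPM + 0.5) is called the panel level.

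Library totals ran from 22450177 to 46599238 counts, and levels are given in CPM, a gene's counts relative to the TMM-scaled library total. Hsf1 reads were at 21.1 to 29.0 CPM in the 8 Hsf1-/- libraries against 45.3 to 68.6 CPM in the 16 others. The 8 R6/2 libraries stood apart: their TMM factors were 1.19 to 1.395 against 0.808 to 0.954, and 7 skeletal muscle markers summed to 45430 to 91680 CPM against 198200 to 268000 CPM. Counts of 4 Y-linked genes were 0 to 4 in wild type and R6/2 mice of the heat shock experiment and 3916 to 9392 in the 16 other mice, so Hsf1-/- and wild type mice of that experiment differed in age and in Y-linked expression. Marker RNA of several cell types was summed as a description. The summed CPM of the 24 panel genes was 633 to 1140. It was 4.48 to 8.34 for the 6 platelet markers in the table, 20.9 to 47.1 for 6 lymphatic markers and 51.9 to 113 for 10 leukocyte markers. The lists differ in length, so these sums do not test which cells the members' reads came from. Mural and fibroblast RNA was present at like levels, with sums of 685 to 1227 CPM for 10 mural markers, of which Abcc9 is also a muscle gene, and 649 to 1360 CPM for 6 fibroblast markers. Adipocyte RNA varied widely, also between partner mice. The sum for 7 adipocyte markers was 232 and 692 CPM in the wild type control mice. Its lowest value was 59.8 CPM, in R6/2 vehicle mice. In the higher of the Hsf1-/- HSP990 mice it lay within the range of the panel sums. Its part in the members' levels was not tested.

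Promoters of the 5 regulated receptor and KLF genes whose entries were in the RefSeq table (GRCm38.p6) are shown because these genes moved in 1 or both treatments. Each printed run holds the 250 bases before the RefSeq transcription start, 5′ to 3′ on the gene's strand, and matched the mm9 genome once. Capitals mark matches, on either strand, to the MEF2 motif (CTA and TAG with any 4 bases between them), the heat shock element cores GAANNTTC and TTCNNGAA, the ETS motif CCGGAA and the KLF-type CACCC box.
Klf2 (chr8:74842711-74842960, plus strand): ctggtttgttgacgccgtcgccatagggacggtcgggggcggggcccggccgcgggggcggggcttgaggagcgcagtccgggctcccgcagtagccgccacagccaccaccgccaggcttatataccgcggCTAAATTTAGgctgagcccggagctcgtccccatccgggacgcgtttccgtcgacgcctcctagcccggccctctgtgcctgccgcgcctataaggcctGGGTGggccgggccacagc
Klf4 (chr4:55545348-55545597, minus strand): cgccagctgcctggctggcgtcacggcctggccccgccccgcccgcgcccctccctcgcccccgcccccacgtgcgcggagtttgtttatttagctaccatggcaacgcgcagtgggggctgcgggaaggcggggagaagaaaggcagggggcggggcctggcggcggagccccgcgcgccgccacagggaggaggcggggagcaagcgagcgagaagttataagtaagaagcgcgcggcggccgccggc
Flt1 (chr5:148537588-148537837, minus strand): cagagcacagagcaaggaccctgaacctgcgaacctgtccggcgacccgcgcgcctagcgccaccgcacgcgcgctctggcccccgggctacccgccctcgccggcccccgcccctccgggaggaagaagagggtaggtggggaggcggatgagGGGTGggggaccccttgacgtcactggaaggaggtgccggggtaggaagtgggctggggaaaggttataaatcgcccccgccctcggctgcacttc
Tek (chr4:94405730-94405979, plus strand): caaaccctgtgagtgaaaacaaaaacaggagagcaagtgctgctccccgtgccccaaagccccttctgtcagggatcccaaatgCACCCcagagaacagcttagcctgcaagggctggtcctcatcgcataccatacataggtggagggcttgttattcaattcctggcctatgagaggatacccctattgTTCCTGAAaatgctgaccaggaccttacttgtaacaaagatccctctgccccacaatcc
Kdr (chr5:76374481-76374730, minus strand): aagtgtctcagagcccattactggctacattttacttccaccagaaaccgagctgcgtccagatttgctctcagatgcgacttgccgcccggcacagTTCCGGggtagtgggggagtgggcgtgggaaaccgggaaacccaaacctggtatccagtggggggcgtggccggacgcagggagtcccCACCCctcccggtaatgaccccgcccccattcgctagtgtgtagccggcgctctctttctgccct
The window searched also held the 50 bases from the start on, 300 in all. The Klf2 promoter held 1 MEF2 match, CTAAATTTAG, whose first base is at -118 from the start. Of 27025 promoters of that length, 3.70% held such a match. Tek was the only 1 of these 5 with a heat shock element core match, TTCCTGAA at -59, and 15.1% of all promoters held either core. A CACCC box lay in the promoters of Klf2, Flt1, Tek and Kdr, and in 56.7% of all promoters, and Kdr held an ETS match that 15.2% of all promoters share. The Klf4 window held none of these letters. A sixth member, Eng, was in the table and held 4 CACCC matches.

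Per kilobase of transcript, averaged over all libraries, Cdh5 had the highest level (46.5 CPM per kb) and Pecam1 the next (30.6 CPM per kb). Klf2 followed at 17.3 and Eng at 15.2 CPM per kb. The receptors Flt1, Tek and Kdr lay close together at 9.38, 8.43 and 7.90 CPM per kb. Nos3 (5.68), Klf4 (5.14) and Vwf (2.36 CPM per kb) were lowest. The ranges of library values overlapped for all 9 pairs of neighbours in this order, and within a library Cdh5 lay above Pecam1, and Klf4 above Vwf, in 24 of 24 libraries, whereas Klf2 lay above Eng in 11 of 24. Over libraries, Klf2 varied most, from 4.19 to 112 CPM (highest over lowest 26.8), and Pecam1 least, from 95.2 to 195 CPM (2.05).

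**Figure D1:**
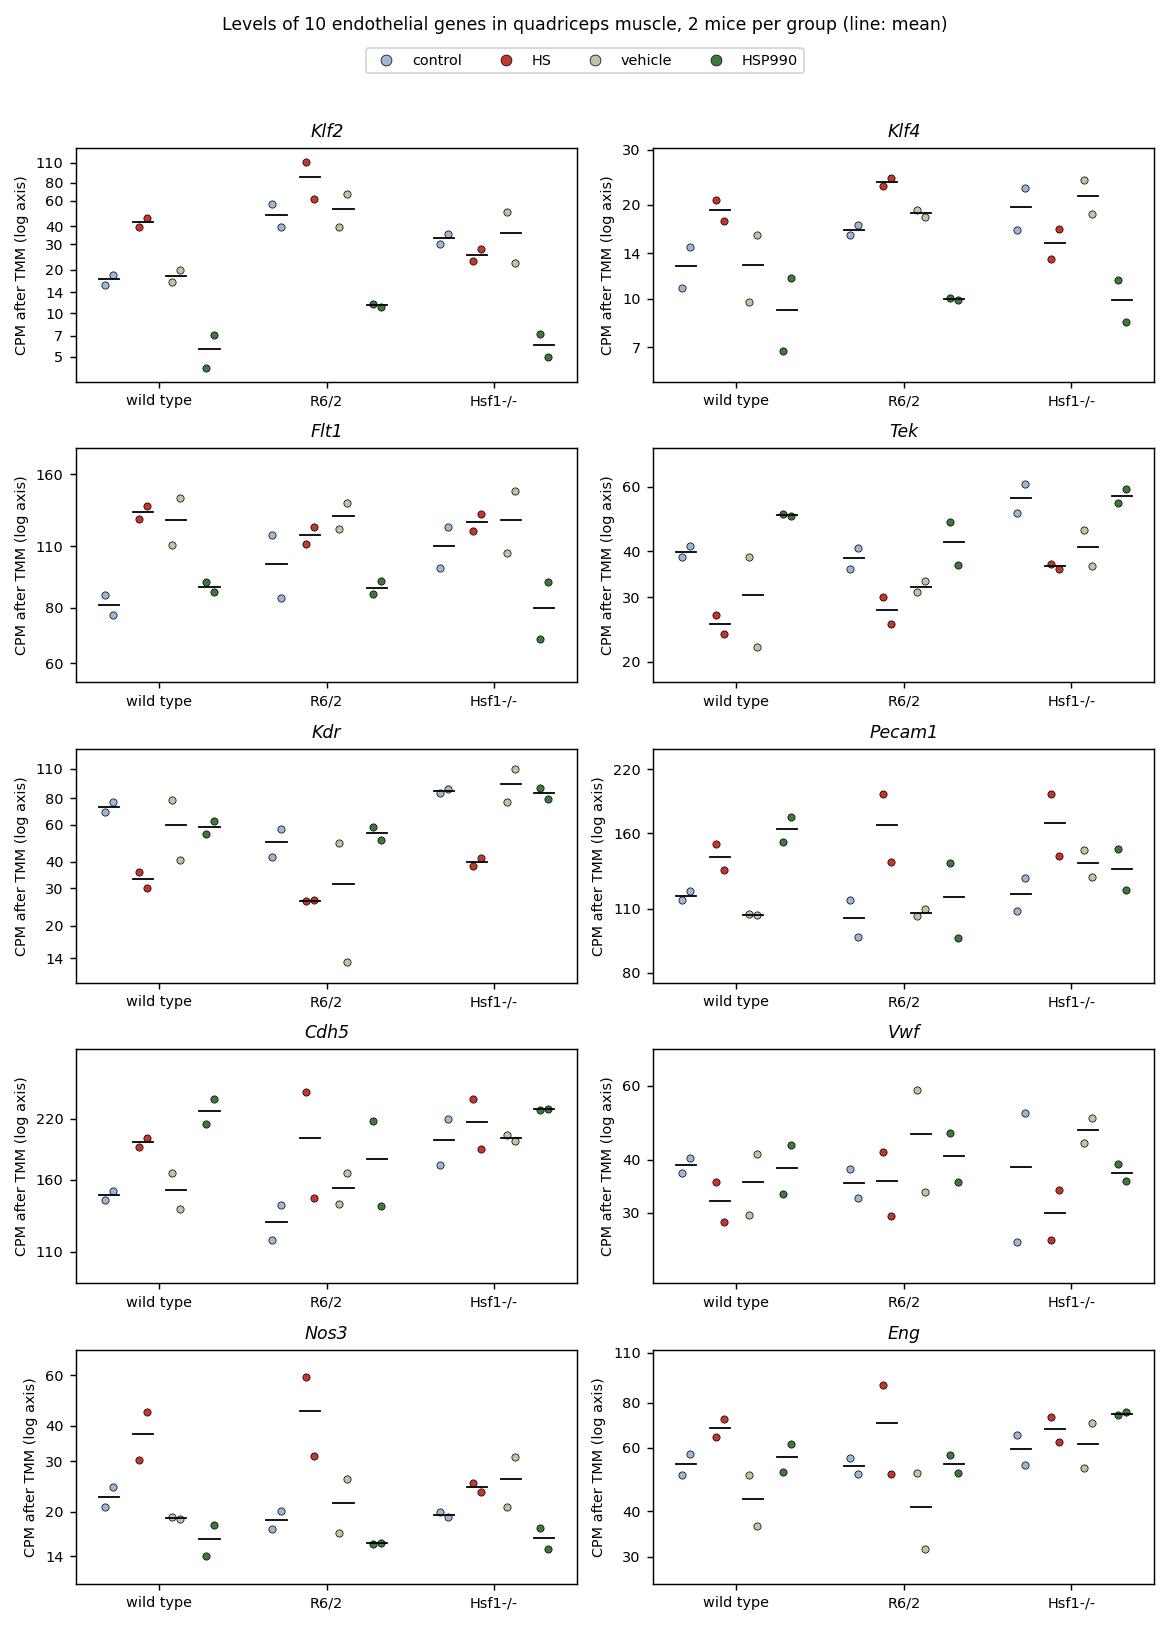
Levels of the 10 genes in 24 libraries, as CPM after TMM on a log axis, with 2 mice per group as points and their mean as a line. Klf2 is lowest in the HSP990 mice of each genotype (4.19 to 11.7 CPM), while Kdr is at 26.0 to 41.9 CPM in the HS mice of all genotypes.

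HSP990 was compared with vehicle to ask how HSP90 inhibition changes these genes. Klf2 fell in all 3 genotypes. Klf4 and Flt1 fell and Tek rose when the genotypes were averaged, whereas the junction genes Pecam1 and Cdh5, Vwf, Nos3, Eng and Kdr did not pass the test.

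In wild type mice, Klf2 was at 16.4 and 19.9 CPM after vehicle and at 4.19 and 7.09 CPM after HSP990. In R6/2 mice it was at 39.3 and 66.5 CPM after vehicle and at 11.7 and 10.97 CPM after HSP990. In Hsf1-/- mice it was at 50.1 and 22.3 CPM after vehicle and at 7.15 and 4.99 CPM after HSP990. Each vehicle mouse lay above each HSP990 mouse of its genotype, and the 6 vehicle mice did not overlap the 6 HSP990 mice when pooled. The log2 fold changes were -1.67 ± 0.395 (SE, edgeR quasi-likelihood test, adjusted p = 0.045) in wild type, -2.22 ± 0.383 (adjusted p = 0.0081) in R6/2 and -2.56 ± 0.397 (adjusted p = 0.0084) in Hsf1-/- mice. Klf2 was the single member called in each of these comparisons, where 1.77%, 1.29% and 0.225% of all genes tested were called and 0.364%, 0.843% and 0.0509% were lower. Averaged over the genotypes, the Klf2 change was -2.15 ± 0.226 (adjusted p = 3.1e-05), from 35.7 ± 19.9 to 7.68 ± 3.06 CPM (SD, n = 6 mice each). The call held without any 1 of the 12 mice (adjusted p of at most 0.00038). The single-genotype calls did not: without 1 mouse, the adjusted p was 0.093 to 0.355 in wild type mice, where all 4 omissions ended the call, and it reached 0.102 in R6/2 mice (3 of 4 omissions: vehicle mouse 2 and both HSP990 mice) and 0.088 in Hsf1-/- mice (2 of 4: vehicle mouse 1 and HSP990 mouse 1). The wild type call was also lost with scaling by library size alone, without a filter, with the replicate block and with the panel as a covariate, and the R6/2 and Hsf1-/- calls were lost with only the groups compared in the fit.

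Klf4, the closest relative of Klf2 in endothelium, was at 9.77 to 23.9 CPM in the vehicle mice and at 6.79 to 11.6 CPM in the HSP990 mice. The groups overlapped through the wild type mice, whose 2 vehicle values were 9.77 and 15.9 CPM against 6.79 and 11.6 CPM. Averaged over genotypes, Klf4 changed by -0.82 ± 0.15 (adjusted p = 0.003), and it was called again in 12 of 12 fits that left out 1 mouse, but not without the Hsf1-/- mice (-0.69, adjusted p = 0.053).

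Flt1 was at 111 and 141 CPM in wild type, 120 and 138 CPM in R6/2 and 106 and 146 CPM in Hsf1-/- vehicle mice. After HSP990 it was at 91.4 and 87.1, 85.9 and 91.7, and 68.0 and 91.7 CPM, with every HSP990 mouse below every vehicle mouse. This averaged to -0.57 ± 0.106 (adjusted p = 0.0036), which passed the test under all 10 alternative settings.

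Tek was at 38.7 and 21.99 CPM in wild type, 31.0 and 33.1 CPM in R6/2 and 45.9 and 36.6 CPM in Hsf1-/- vehicle mice. After HSP990 it was at 50.4 and 49.96, 48.1 and 36.8, and 54.1 and 59.0 CPM, higher than vehicle in each genotype. For Tek the averaged change was 0.53 ± 0.116 (adjusted p = 0.011). It was 0.43 (adjusted p = 0.083) when libraries were scaled to the panel, 0.53 (adjusted p = 0.069) with only the 6 groups compared in the fit, and 0.57 (adjusted p = 0.06) without the Hsf1-/- mice. Thus 4 of 10 members were called, 3 of them lower, where 4.56% of all genes tested were called, 2.54% higher and 2.01% lower. The median log2 fold change over the 10 members was 0.04, and over all genes tested it was 0.01.

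Nos3, the endothelial nitric oxide synthase gene, did not pass (-0.46, adjusted p = 0.12), although each HSP990 mouse was below each vehicle mouse of its genotype. Klf2, Flt1 and Nos3 were lower without overlap in every genotype, as 2.67% of all genes tested were, and Tek and Eng were higher without overlap, as 2.25% were. Eng had a log2 fold change of 0.35 (adjusted p = 0.21), and in the annotation its start overlaps the end of Ak1 on the same strand.

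Kdr had a log2 fold change of 0.21 (adjusted p = 0.74), and 1 library weighed on it. The second R6/2 vehicle mouse was at 13.4 CPM of Kdr, the lowest value of the series, while its partner was at 49.3 CPM. Without this mouse the averaged change was -0.01, and without its partner it was 0.62 (adjusted p = 0.026). The same mouse had the lowest Eng level of the series, 31.5 CPM, but its panel level, 4.43, was close to the 4.38 of its partner.

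Heat shock was compared with the control procedure in the same way. Tek and Kdr fell and Nos3 and Pecam1 rose when the genotypes were averaged. No member passed the test within any 1 genotype in the edgeR fit of all 12 groups.

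**Figure D2:**
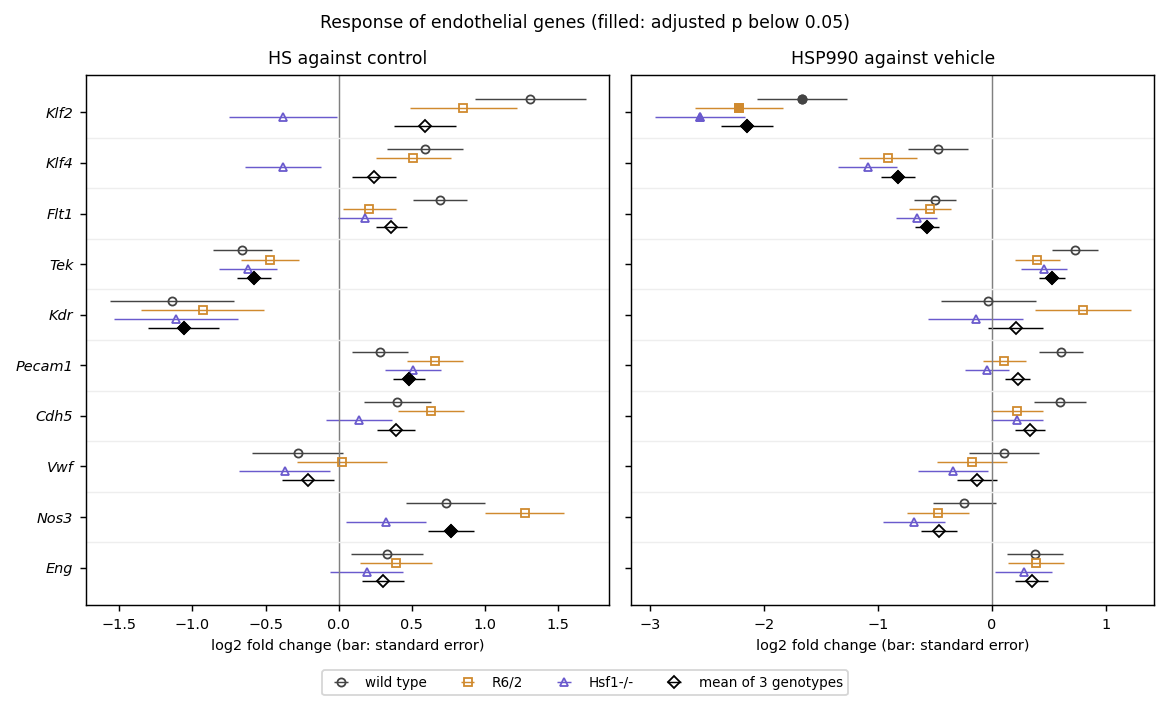
Log2 fold changes of the 10 genes after HS (left) and HSP990 (right), by genotype and averaged, with standard errors as bars and filled symbols where the adjusted p was below 0.05. Klf2 is filled in all 3 genotypes after HSP990, while after HS the filled symbols are the averages of Tek, Kdr, Pecam1 and Nos3.

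Kdr was at 68.5 and 76.7 CPM in wild type, 42.3 and 57.3 CPM in R6/2 and 84.2 and 88.7 CPM in Hsf1-/- control mice. After HS it was at 35.9 and 30.2, 26.0 and 26.4, and 38.1 and 41.9 CPM. Every HS mouse was below every control mouse. Averaged over genotypes, Kdr changed by -1.06 ± 0.244 (adjusted p = 0.018), from 69.6 ± 17.5 to 33.1 ± 6.55 CPM (SD, n = 6 mice each). It was of like size in wild type (-1.14), R6/2 (-0.93) and Hsf1-/- mice (-1.11), but the adjusted p rose to as much as 0.061 when 1 of 4 mice (wild type HS mouse 2, R6/2 control mouse 2, R6/2 HS mouse 1 or Hsf1-/- HS mouse 1) was left out, and it was 0.18 without all Hsf1-/- mice.

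Tek was at 38.5 and 41.3 CPM in wild type, 35.9 and 41.0 CPM in R6/2 and 50.9 and 61.2 CPM in Hsf1-/- control mice. After HS it was at 26.9 and 23.8, 29.99 and 25.3, and 37.0 and 35.8 CPM, lower in each genotype. The Tek change averaged -0.58 ± 0.116 (adjusted p = 0.005). The call was made in 12 of 12 fits that left out 1 mouse, but not without the Hsf1-/- mice (adjusted p = 0.065).

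Nos3 was at 20.7 and 24.4 CPM in wild type, 17.4 and 20.1 CPM in R6/2 and 19.99 and 19.1 CPM in Hsf1-/- control mice. After HS it was at 30.2 and 44.5, 58.9 and 31.3, and 25.3 and 23.5 CPM. All HS mice lay above the control mice of their genotype, and the first R6/2 HS mouse was highest. The Nos3 change averaged 0.77 ± 0.157 (adjusted p = 0.0062), and it was called under all 10 alternative settings. The annotation places Atg9b across the 3′ end of Nos3 on the opposite strand, and whether the counting used the strand of the libraries is not given in the sources used here.

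Pecam1, which encodes the adhesion protein CD31, was at 95.8 to 128 CPM in the control mice and at 134 to 195 CPM in the HS mice, with no overlap. The averaged change was 0.48 ± 0.11 (adjusted p = 0.012). It missed the threshold when Hsf1-/- HS mouse 1 was left out (adjusted p = 0.051), when the libraries were scaled to the panel (0.29, adjusted p = 0.16), with the panel as a covariate (0.30, adjusted p = 0.07) and without the Hsf1-/- mice (adjusted p = 0.073). Flt1 had 0.36 ± 0.106 (adjusted p = 0.0503) and passed under 7 of 10 alternative settings. Cdh5 (0.39), Eng (0.30) and Vwf (-0.21) did not pass.

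Thus 4 of 10 members were called after HS, 2 in each direction, where 6.12% of all genes tested were called, 3.81% higher and 2.31% lower. Pecam1 and Nos3 were higher and Tek and Kdr lower without overlap in every genotype, as 4.22% and 2.73% of all genes tested were. Within single genotypes 0 of 10 members were called, where 1.92% of all genes tested were called in wild type, 0.0509% in R6/2 and 0.00% in Hsf1-/- mice. At an unadjusted p under 0.05, 1186 genes passed in Hsf1-/- mice, and DESeq2 called 2, 1 and 0 members in the 3 genotypes.

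Klf2 did not pass the test after HS in any genotype in the edgeR fit of all 12 groups. In wild type mice it was called with DESeq2 and with only the groups compared. The log2 fold change there was 1.18 to 1.32 over the alternative settings. Its level was 15.7 and 18.6 CPM in wild type control and 39.8 and 45.3 CPM in wild type HS mice, 56.8 and 39.8 against 112 and 62.2 CPM in R6/2 mice, and 30.3 and 35.6 against 22.9 and 27.7 CPM in Hsf1-/- mice. All HS mice were above their controls in wild type and R6/2 mice, and both Hsf1-/- HS mice were below theirs. The log2 fold changes were 1.31 ± 0.376 (adjusted p = 0.097), 0.85 ± 0.365 (adjusted p = 0.57) and -0.38 ± 0.37 (adjusted p = 0.86). The averaged change was 0.59 (adjusted p = 0.13), and without the Hsf1-/- mice it was 1.08 (adjusted p = 0.026). The averaged Klf2 change was also called with only the groups compared and with DESeq2. Klf4 had 0.59, 0.51 and -0.38 in the same order, with no value passing the test.

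The 2 treatments were set against each other by testing HS minus HSP990, a contrast of 4 sets of mice with no sample shared between the 2 responses. The experiments also differed in Y-linked counts for wild type and R6/2 mice and in age for Hsf1-/- mice, which cannot be told apart from the treatment in this contrast. The responses of 6 of 10 members differed, where 7.56% of all genes tested did, 4.14% with a higher and 3.42% with a lower value after HS. The difference was 2.74 ± 0.309 for Klf2 (adjusted p = 6.4e-05), 1.23 ± 0.222 for Nos3 (adjusted p = 0.002), 1.06 ± 0.211 for Klf4 (adjusted p = 0.0035) and 0.93 ± 0.15 for Flt1 (adjusted p = 0.00068), all in the direction of a higher value after HS. It was -1.11 ± 0.164 for Tek (adjusted p = 0.00031) and -1.27 ± 0.343 for Kdr (adjusted p = 0.037), in the other direction. Kdr was called in 6 of 24 fits that left out 1 mouse (adjusted p of up to 0.077), and the other 5 members were called in all 24. Pecam1, Cdh5, Vwf and Eng, the 4 members not called, had differences between -0.08 and 0.26.

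Levels were then set against the endothelial panel, to place each receptor beside the other endothelial RNA. Relative to it, Kdr and Tek were lower after HS and Klf2 was lower after HSP990, without overlap of the mice. The mean panel level was 4.57 in control and 4.75 in HS mice, and 4.64 in vehicle and 4.74 in HSP990 mice, with overlap of the pooled mice in both cases. Within genotypes, the panel was higher without overlap in wild type HS (4.66 to 4.78 against 4.62 to 4.63), R6/2 HS (4.44 to 4.93 against 4.25 to 4.42) and wild type HSP990 mice (4.77 to 5.00 against 4.60 to 4.68), and it overlapped in the other 3 comparisons. On the same log2 scale, Kdr lay 1.52 above the panel in control and 0.298 above it in HS mice, and the ranges (1.17 to 1.72 and -0.198 to 0.705) did not overlap. Tek went from 0.909 to 0.154 above the panel without overlap. After HSP990, Klf2 went from 0.356 above to 1.79 below the panel without overlap (individual mice from -0.605 to 1.64 and from -2.54 to -0.701). Klf4, Flt1 and Tek overlapped on this scale when the genotypes were pooled, but within each genotype Klf4 and Flt1 minus the panel were lower and Tek minus the panel was higher in both HSP990 mice than in both vehicle mice. The differences of the means for Flt1 were -0.729 in wild type, -0.612 in R6/2 and -0.634 in Hsf1-/- mice, and for Tek 0.529, 0.309 and 0.482. After HS, Pecam1 and Nos3 minus the panel were higher in both HS mice than in both control mice of each genotype, but overlapped when pooled. The share of all genes tested that did not overlap on this scale was not computed. The fits below test the changes with the panel taken into account.

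**Figure D3:**
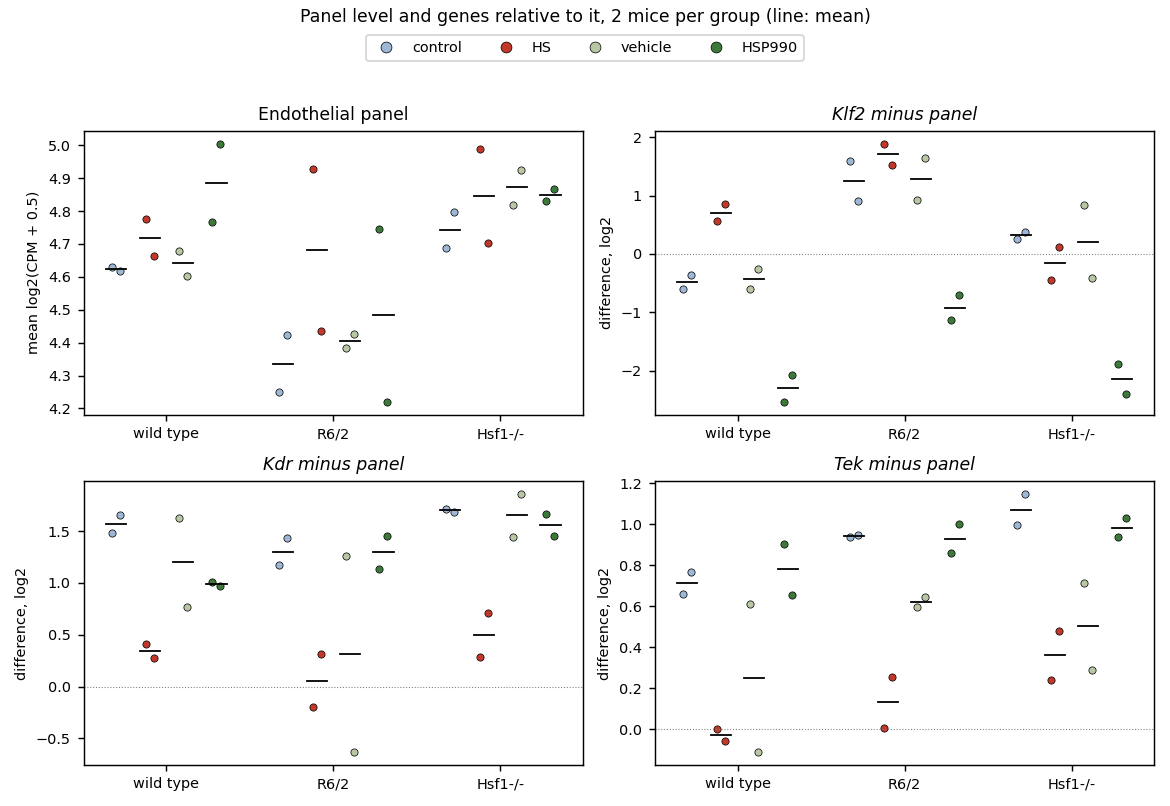
The endothelial panel level (mean log2(CPM + 0.5) of 23 genes) and the log2 level of Klf2, Kdr and Tek minus it, with 2 mice per group as points and their mean as a line. Kdr and Tek minus the panel are lower in all HS mice than in all control mice, and Klf2 minus the panel is lowest in the HSP990 mice of each genotype.

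In a fit with libraries scaled to the panel, Tek, Kdr and Nos3 after HS and Klf2, Klf4 and Flt1 after HSP990 kept their calls. Pecam1 after HS and Tek after HSP990 missed the threshold. This fit called 4 members after HSP990, so a member not called without this scaling also passed. How much of any change lies in cell number was not tested. Panel members themselves moved. Of the 23 panel genes tested, 5 rose and 2 fell after HS, where 6.12% of all genes tested were called. After HSP990, 2 rose and 4 fell, where 4.56% of all genes tested were called. Calls above the share of all genes were thus not limited to the members. After HS, Rasip1 rose by 0.91 (adjusted p = 0.0015), Cldn5, the tight junction claudin, rose by 1.41 (adjusted p = 0.028, called in 3 of 12 fits without 1 mouse), and Myct1 fell by 1.17 (adjusted p = 0.006). After HSP990, S1pr1, the sphingosine 1-phosphate receptor gene, fell by 1.01 (adjusted p = 0.0013) and Ramp2, an adrenomedullin receptor subunit gene, fell by 0.90 (adjusted p = 0.0036). Cd34 and Myct1 were the 2 that rose.

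Other cell types were read beside these results. Of 10 mural cell markers 0 were called after HS and 1 (Notch3, 0.52, called in 4 of 12 fits without 1 mouse) after HSP990, of 4 platelet markers tested 0 were called in both, and of 10 leukocyte markers 2 rose after HS (Cd14 and Itgam, called in 3 and 1 of 12 fits without 1 mouse) and 0 after HSP990. Of 5 arterial markers, Sox17 rose (called in 3 of 12 fits without 1 mouse) and Gja5 fell after HS and Gja4 fell after HSP990, and of 4 venous markers 0 were called. Of 4 capillary markers tested, Gpihbp1 (0.60) and Rgcc (0.81, called in 4 of 12) rose after HS, while Car4 (-0.91) and Gpihbp1 (-0.82) fell after HSP990. Flt4 was the 1 of 5 lymphatic markers tested that was called, after HS (in 2 of 12). Of the skeletal muscle, fibroblast, adipocyte, erythroid and Schwann cell markers 0 were called in both treatments. Their part in the results was not tested.

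Genotypes were compared in untreated mice, with control and vehicle mice averaged (4 against 4). Klf2 was the 1 of 10 members called higher in R6/2 than in wild type mice, where 30.2% of all genes tested were called and 15.0% were higher. It was at 39.3 to 66.5 CPM in the 4 R6/2 mice and at 15.7 to 19.9 CPM in the 4 wild type mice, with no overlap. The log2 fold change was 1.52 ± 0.266 (adjusted p = 0.00053), called in 8 of 8 fits without 1 mouse and under all 11 alternative settings. The median over all genes tested was 0.05, and over the members it was -0.02. Pecam1 (-0.07), Cdh5 (-0.09), Nos3 (-0.05) and Eng (-0.04) lay close to 0 in this fit, and all 4 were above 0 and called when libraries were scaled by total counts alone, which put the median of all genes at 0.66. The panel level was 4.25 to 4.43 in R6/2 and 4.60 to 4.68 in wild type mice. Of 23 panel genes tested 5 were called lower, where 2084 of all 13754 genes tested were. Among the 5 was Ptprb, an endothelial phosphatase gene (-0.91, adjusted p = 3.7e-05). The direction of the panel depended on the scaling. Its median log2 fold change was -0.27 in this fit and 0.34 with scaling by total counts alone. Kdr had -0.74 (adjusted p = 0.076), with -1.35 (adjusted p = 0.00018) without R6/2 vehicle mouse 1, -0.93 (adjusted p = 0.037) without wild type vehicle mouse 2 and -0.41 without R6/2 vehicle mouse 2. Markers of other cells moved with this comparison. Of 7 skeletal muscle markers 6 were lower, of 10 mural markers Cspg4 (-0.67) and Abcc9 (-0.46) were lower, and of 7 adipocyte markers Plin1 (-2.43, called in 2 of 8 fits without 1 mouse) was lower. Of 10 leukocyte markers C1qa (0.61) and Lyz2 (0.59) were higher, as were the lymphatic marker Pdpn (0.99), the venous marker Nr2f2 (0.49) and the fibroblast marker Pdgfra (0.48, called in 1 of 8), while the capillary marker Rgcc (-0.80, called in 3 of 8) was lower. Their part in the Klf2 result was not tested.

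In Hsf1-/- against wild type mice 0 of 10 members were called by edgeR, where 0.916% of all genes tested were called. At an unadjusted p under 0.05, 1970 genes passed, and DESeq2 called 2 members. All 10 members had log2 fold changes above 0 (median 0.36, against 0.22 for the panel and 0.00 for all genes tested), and the panel level was 4.69 to 4.93 in Hsf1-/- against 4.60 to 4.68 in wild type mice. Klf2 had 0.97 (adjusted p = 0.11), Klf4 0.67 (adjusted p = 0.096) and Tek 0.47 (adjusted p = 0.14). The mice also differed in age, and in the heat shock experiment in Y-linked expression, which cannot be told apart from genotype.

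The size of the responses was compared between genotypes. For HS and for HSP990, and for R6/2 and for Hsf1-/- against wild type mice, 0 of 10 members were called by edgeR and 0 by DESeq2. Of all genes tested, 0.0800% and 0.160% were called for HS, and 0.00% and 0.414% for HSP990, and 495 to 946 genes passed at an unadjusted p under 0.05. Klf2 had the largest difference among the members, a log2 fold change after HS 1.69 ± 0.526 lower in Hsf1-/- than in wild type mice (-1.69, unadjusted p = 0.0058, adjusted p = 0.96). For the Klf2 change after HSP990 the difference of Hsf1-/- from wild type mice was -0.89 ± 0.545 (adjusted p = 0.836), which did not pass.

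The genes around the members in the pathway were read from lists that, like the members, were chosen with earlier results of these data known. Counts of genes called in these lists are therefore given as a description. Among 12 VEGF and angiopoietin ligands and co-receptors, Angpt2 and Flt4 (called in 2 of 12 fits without 1 mouse) rose after HS, and Vegfc, Angpt2 and Nrp1 rose after HSP990. Angpt2, a Tek ligand that can act as an antagonist, rose by 1.33 after HS (adjusted p = 0.0031; 4.29 ± 0.794 to 10.9 ± 2.94 CPM, SD, n = 6) and by 1.37 after HSP990 (adjusted p = 0.0028; 4.38 ± 2.06 to 11.3 ± 1.78 CPM). Vegfc, a ligand of the lymphatic receptor FLT4, rose by 0.94 after HSP990 (adjusted p = 0.011). In R6/2 against wild type mice Vegfa, the main KDR ligand, was lower (-1.02, adjusted p = 1.4e-05; 246 ± 41.1 to 122 ± 25.2 CPM, n = 4), and Angptl4 was higher by 2.45 (adjusted p = 0.01).

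Of 6 genes known to be raised by KLF2 in endothelium, 5 were tested, and 2 of these (Nos3 and Tek) are members. After HSP990, when Klf2 fell, 2 were called and both were higher (Tek and Nppc), and 0 were called lower. Nos3 did not pass, although each HSP990 mouse was below each vehicle mouse of its genotype. Nppc, the gene of C-type natriuretic peptide, rose by 2.89 (adjusted p = 8.3e-05; 0.923 ± 0.883 to 5.23 ± 1.87 CPM, SD, n = 6). After HS it fell by 2.39 (adjusted p = 0.0053; 0.911 ± 0.63 to 0.289 ± 0.306 CPM). Of 7 genes known to be lowered by KLF2, 2 rose after HSP990 (Edn1 by 1.38 and Angpt2) and 0 fell. Edn1 also rose after HS, by 1.21 (adjusted p = 0.012). Edn1 encodes the vasoconstrictor endothelin 1. The median log2 fold change of this list was 0.40 after HSP990. Of 11 genes of the MEK5, ERK5 and MEF2 pathway and the cerebral cavernous malformation complex, which control Klf2, 0 were called after HS and 1 was called after HSP990 (Heg1, 0.59, adjusted p = 0.0053).

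Among 14 KLF genes tested, 5 fell after HSP990 (Klf2, Klf4, Klf6, Klf9 and Klf15) and 0 rose. Klf15, a metabolic factor that is abundant in muscle, fell by 1.10 (adjusted p = 0.00016; 130 ± 52.0 to 58.2 ± 10.4 CPM, SD, n = 6). After HS, 2 rose (Klf15 by 1.07, adjusted p = 0.00031, and Klf9 by 0.48, adjusted p = 0.0082) and 0 fell. Klf6 was the KLF gene called in Hsf1-/- against wild type mice (0.91, adjusted p = 0.017, called in 3 of 8 fits without 1 mouse).

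In the nitric oxide pathway, 2 of 12 genes rose after HS (Nos1 by 0.92 and Nos3) and 3 fell (Nos2 by 1.10, with Cav2 and Gucy1b1), and 0 were called after HSP990. Of 9 genes of the endoglin and ALK1 pathway, Bmpr2 fell after HS by 0.49 (adjusted p = 0.018, called in 7 of 12 fits without 1 mouse) and Tgfbr2 and Smad1 rose after HSP990 (called in 3 and 2 of 12). Of 11 Notch and tip cell genes, 3 rose after HS (Notch1, Notch4 and Hes1, called in 2, 3 and 5 of 12 fits without 1 mouse). After HSP990, Apln, the apelin gene of sprouting tip cells, rose by 2.36 (adjusted p = 0.014; 3.90 ± 2.39 to 21.4 ± 13.2 CPM, SD, n = 6) and Esm1, another tip cell gene, rose by 1.77 (adjusted p = 0.026, called in 4 of 12), while Notch4 (called in 1 of 12) and Jag2 fell.

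Across the 12 group means, the members' profiles were compared with all other genes. The likeness is a Pearson r of log2(CPM + 0.5), given as a description, and the groups share their libraries' depth and scaling. The genes most like Klf2 were Slc43a1 (0.959), Chodl (0.945) and Ctsf (0.93). For Klf4 they were Kank3 (0.921), Car4 (0.91) and Tcp11l2 (0.906). For Tek they were Klhl4 (0.934), Arhgap18 (0.932) and Arhgap29 (0.927), and for Kdr Thap2 (0.951), Cdc42ep3 (0.948) and Fat4 (0.944). Flt1 was most like Jade2 (0.944), Nos3 most like Fes (0.94), and Pecam1, Cdh5, Eng and Vwf most like Sh3tc1 (0.894), Pcdh1 (0.908), Ccn2 (0.847) and Dock6 (0.804). Among members, Klf2 and Klf4 had r = 0.94 over the group means, and Klf2 had -0.64 with Tek and 0.73 with Nos3. Within groups, the difference between the 2 mice of a group was set against that of the panel over 12 groups. The r used for this did not subtract the means, unlike the Pearson r above. It was 0.92 for Cdh5, 0.76 for Pecam1, 0.13 for Kdr and 0.20 for Klf2. The signs matched in 9, 8, 7 and 5 of 12 groups in that order.

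The mm9 annotation placed the members as follows. Klf2 (NCBI gene 16598) lies at chr8:74842932-74845555 on the plus strand and Klf4 (16600) at chr4:55540013-55545347 on the minus strand. Flt1 (14254) lies at chr5:148373180-148537587 and Kdr (16542) at chr5:76328852-76374483, both on the minus strand. Tek (21687) lies at chr4:94405980-94541667 and Nos3 (18127) at chr5:23870628-23890292, both on the plus strand. Pecam1 (18613) lies at chr11:106515531-106611942 on the minus strand, Cdh5 (12562) at chr8:106625525-106668402, Vwf (22371) at chr6:125496792-125636697 and Eng (13805) at chr2:32502115-32538189 on the plus strand.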

How the data were processed

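Per the labels and the study's methods, strand-specific paired-end poly(A) libraries were read at 40 bases and mapped to mm9 with Bowtie. The counting program and annotation are not given in the sources used here. The authors deposited raw counts per gene by NCBI gene number for 24 libraries of 22450177 to 46599238 counts. Member counts per library ran from 84 to 11048, which sets their counting precision. Counts were tested with edgeR 4.0.16 (R 4.3.3) by the quasi-likelihood test over all 12 groups with TMM factors, after a filter of at least 2 counts in at least 10 libraries (13754 genes, 12 residual degrees of freedom). P-values were adjusted by Benjamini-Hochberg within each contrast over all genes tested, with 0.05 as the threshold, and an SE is the log2 fold change over the root of the F statistic. Panel levels used a pseudocount of 0.5 CPM. Gene symbols matched 18594 of 18669 rows. DESeq2 1.42.0, other normalizations and filters, a replicate block, scaling to the panel and leaving out mice were alternatives. On simulated counts with 200 of 13754 genes changed by a log2 change of 1.5, 80% were recovered for wild type HS and 94.5% for the averaged HS contrast. Smaller changes and differences between genotypes were not simulated, so recovery of smaller changes is not known from this. Same-numbered mice did not consistently deviate together (correlations of -0.333 to 0.346 over 66 pairs of groups, median -0.0197), although 10 pairs were over 0.1. Numbers were therefore not taken to pair mice. Named genes were the 10 members, up to 3 called genes per list and comparison with the largest change (genes named beyond this rule were named after their values were seen, to identify a small count), and the 3 genes most like each member. The members and lists were chosen with earlier results of these data known. A fold change, SE and adjusted p over averaged genotypes weight the 3 genotypes equally. Promoter entries for Pecam1, Cdh5, Vwf and Nos3 were not used here. The result of 1 list after HS is not reported here.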

Additional observations from a re-analysis of the deposited data

Results flagged for a closer look

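Klf2 after HS drew attention because the mice moved opposite ways in a pair of genotypes. Neither change passed its own test in the edgeR fit of all 12 groups. Both wild type HS mice were above both wild type controls, and both Hsf1-/- HS mice were below both Hsf1-/- controls. The difference of the log2 fold changes, Hsf1-/- minus wild type, was -1.69 (SE 0.526, unadjusted p = 0.0058 by edgeR) and did not pass the adjustment over all genes tested (adjusted p = 0.96). It was called when only the groups compared entered the fit. The Hsf1-/- mice of this experiment were 10 weeks old and the wild type mice 12 weeks, and their Y-linked counts differed, so age and Y-linked expression cannot be told apart from genotype.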

How the results depend on the processing

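Counts of members called changed with the processing in these ways. With DESeq2 they were 2 for wild type HS, 2 for wild type HSP990, 1 for R6/2 HS, 2 for R6/2 HSP990, 2 for Hsf1-/- HSP990, 7 for averaged HS, 3 for R6/2 against wild type and 2 for Hsf1-/- against wild type mice. With only the groups compared they were 5 for wild type HS, 2 for wild type HSP990, 0 for R6/2 HSP990, 1 for Hsf1-/- HS, 0 for Hsf1-/- HSP990, 6 for averaged HS, 3 for averaged HSP990 and 1 for the difference of the HS response between Hsf1-/- and wild type mice. This fit was not run for HS minus HSP990, which uses all 12 groups. Scaling by library size alone gave 1 for wild type HS and 9 for R6/2 against wild type mice, with reversed, called values for Pecam1 (0.53), Cdh5 (0.52), Nos3 (0.56) and Eng (0.57). Averaged HS had 5 with RLE size factors, without a filter and with filterByExpr, and 3 when scaled to the panel, with the panel as a covariate and without Hsf1-/- mice. Scaling to the panel gave 2 for R6/2 against wild type mice. Wild type HSP990 had 0 without a filter and 0 with the panel as a covariate, and averaged HSP990 had 2 without Hsf1-/- mice. Apart from the choices' own construction the cause was not tested. Leaving out each mouse in turn gave 0 to 1 for wild type HSP990, 0 to 3 for R6/2 HS, 0 to 2 for R6/2 HSP990, 0 to 1 for Hsf1-/- HSP990, 2 to 6 for averaged HS, 4 to 5 for averaged HSP990, 5 to 6 for HS minus HSP990, 1 to 3 for R6/2 against wild type and 0 to 1 for Hsf1-/- against wild type mice. For the other comparisons it stayed at 0.

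With the replicate number as a block, wild type HSP990 had 0 members called (Klf2 -1.67, adjusted p = 0.06) and averaged HS had 5, Flt1 being added (adjusted p = 0.045). The block changed no other count. Klf2 rests on the fewest reads (84 in 1 library), and Kdr on values that differ between partner mice.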
